A study of Homo sapiens with 24 samples.

Results

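FGFR4 and 9 other genes of fibroblast growth factor (FGF) receptor signaling were followed across 3 estrogen receptor-positive (ER+) breast cancer lines grown at low or high glucose. They were the 10 rows, of 18889 genes in the deposited table, that carry the symbols FGFR1, FGFR2, FGFR3, FGFR4, SPRY1, SPRY2, SPRY4, DUSP6, ETV4 and ETV5. FGFR4 was chosen by its fall at high glucose in all 3 lines, so its glucose values are a description with no test, and the other 9 genes were added as its relatives and as known outputs of the pathway.

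HCC1500, ZR-75-30 and MDA-MB-175 are established human breast carcinoma lines. Each was kept for 48 hours at 5 mM glucose, which is called low and served as control, or at 25 mM, which is called high and models hyperglycemia, with 4 replicate flasks in each of the 6 groups and 24 RNA-Seq profiles in all. The general culture methods of the study describe both media as free of serum, with the cells first conditioned at low glucose, and the labels name no osmotic control for these samples. The labels do not say whether replicate flasks were separate experiments, so the p-values below measure the spread between these flasks, and each line stands for itself.

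FGF ligands bind 4 receptor tyrosine kinases, FGFR1 to FGFR4, which pass the signal through the docking protein FRS2 to the RAS-ERK kinase relay. FGFR4 is the main receptor of the hormone-like ligand FGF19 in liver, where it works with the co-receptor KLB, and it is also expressed in a share of breast cancers. ERK activity induces its own inhibitors, the Sprouty proteins and the ERK phosphatase DUSP6, together with the ETS transcription factors ETV4 and ETV5, so the mRNAs of these genes are widely used as a readout of the pathway.

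The human FGFR4 gene (ENSG00000160867) lies on the plus strand of chromosome 5, at 176513906 to 176525145 of GRCh37. SPRY4 lies on the same chromosome, FGFR3 and SPRY1 on chromosome 4, and the others on chromosomes 3 (ETV5), 8 (FGFR1), 10 (FGFR2), 12 (DUSP6), 13 (SPRY2) and 17 (ETV4). The RefSeq table of GRCh38.p14 promoters holds 2 windows for it, each running from 250 bases before a transcription start to 50 bases after it. They are shown because the 10 genes were gathered around FGFR4. Capitals mark 3 motifs, searched on both strands, none of which overlaps another. They are the E-box CACGTG, bound by basic helix-loop-helix factors, the GC box GGGCGG, bound by SP-family factors, and the ETS-type motif CCGGAAG.
FGFR4 upstream start, chr5:177086665-177086964, plus strand: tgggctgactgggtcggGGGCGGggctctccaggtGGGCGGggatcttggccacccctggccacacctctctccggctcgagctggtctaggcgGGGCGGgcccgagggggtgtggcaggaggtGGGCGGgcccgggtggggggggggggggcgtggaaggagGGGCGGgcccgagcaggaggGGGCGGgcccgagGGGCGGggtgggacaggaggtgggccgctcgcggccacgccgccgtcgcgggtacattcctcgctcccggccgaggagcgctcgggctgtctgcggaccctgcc
FGFR4 downstream start, chr5:177089300-177089599, plus strand: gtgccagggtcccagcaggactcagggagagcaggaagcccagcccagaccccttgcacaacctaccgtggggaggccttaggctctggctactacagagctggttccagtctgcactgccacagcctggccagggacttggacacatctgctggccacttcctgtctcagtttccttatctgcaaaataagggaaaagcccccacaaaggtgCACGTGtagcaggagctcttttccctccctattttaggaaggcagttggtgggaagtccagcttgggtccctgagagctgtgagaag
The upstream window, with a G+C content of 78.7%, held 7 GC boxes and no E-box. The downstream window, with a G+C content of 57.3%, held 1 E-box and no GC box, and neither held CCGGAAG. Other forms of the ETS site were not searched, and the shorter run GGAA occurs in both windows. Among 35116 promoter windows of the same length, 45.0% held the GC box, 7.26% the E-box and 10.3% CCGGAAG. A match is a run of letters, not a measured binding site, and the gene-level values below do not tell which start was used.

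All values are normalized read counts as deposited, that is whole reads divided by 1 factor per library. The libraries held 9140024 to 17998819 recovered reads. A detection floor of 3 reads corresponded to a normalized read count of 0.953 to 2.29, which covers counting error only. The high glucose libraries of HCC1500 were all shallower (9423472 to 12140912 reads) than its low glucose libraries (13190982 to 17998819 reads). HCC1500 high glucose replicate 3 stood apart from the rest, since 24.73% of its genes differed by more than 1 on the log2 scale from the other replicates of its group, against at most 0.63% in any other library. The glucose changes of named genes and the list counts in HCC1500 are therefore given with and without it. The 7 epithelial and luminal markers, among them EPCAM and ESR1, were expressed in all 24 libraries, with a summed value of 24006 to 58041. Of 10 markers of immune, endothelial, stromal and basal cells, 5 were in the table, with a summed value of 115 to 258. COL1A1 had the highest mean of them in every group. The endothelial marker VWF averaged 50.5 at low and 35.8 at high glucose in MDA-MB-175.

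FGFR4 mRNA was lower at high glucose in every line, with no overlap between conditions. In MDA-MB-175 the 4 low glucose cultures had values of 174, 193, 177 and 149, and the 4 high glucose cultures 74.5, 90.9, 95.6 and 74.1. In ZR-75-30 the values were 711, 694, 755 and 666 at low glucose and 256, 272, 284 and 235 at high glucose. In HCC1500 they were 908, 967, 965 and 1008 at low glucose and 249, 248, 482 and 259 at high glucose. The lowest low glucose culture thus lay above the highest high glucose culture in each line, and HCC1500 high glucose replicate 3, at 482, was closer to the low glucose cultures than were the other replicates. Low glucose cultures carried on average 2.07 times as much FGFR4 mRNA in MDA-MB-175, 2.70 times as much in ZR-75-30 and 3.11 times as much in HCC1500, or 3.82 times without replicate 3. On the log2(value + 1) scale the change was -1.04 ± 0.10 (SE) for MDA-MB-175, -1.43 ± 0.06 for ZR-75-30 and -1.70 ± 0.21 for HCC1500. It was -1.93 ± 0.04 in HCC1500 without replicate 3. In bulk RNA of this kind, fewer cells that express a gene and less RNA per cell cannot be told apart.

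**Figure D1:**
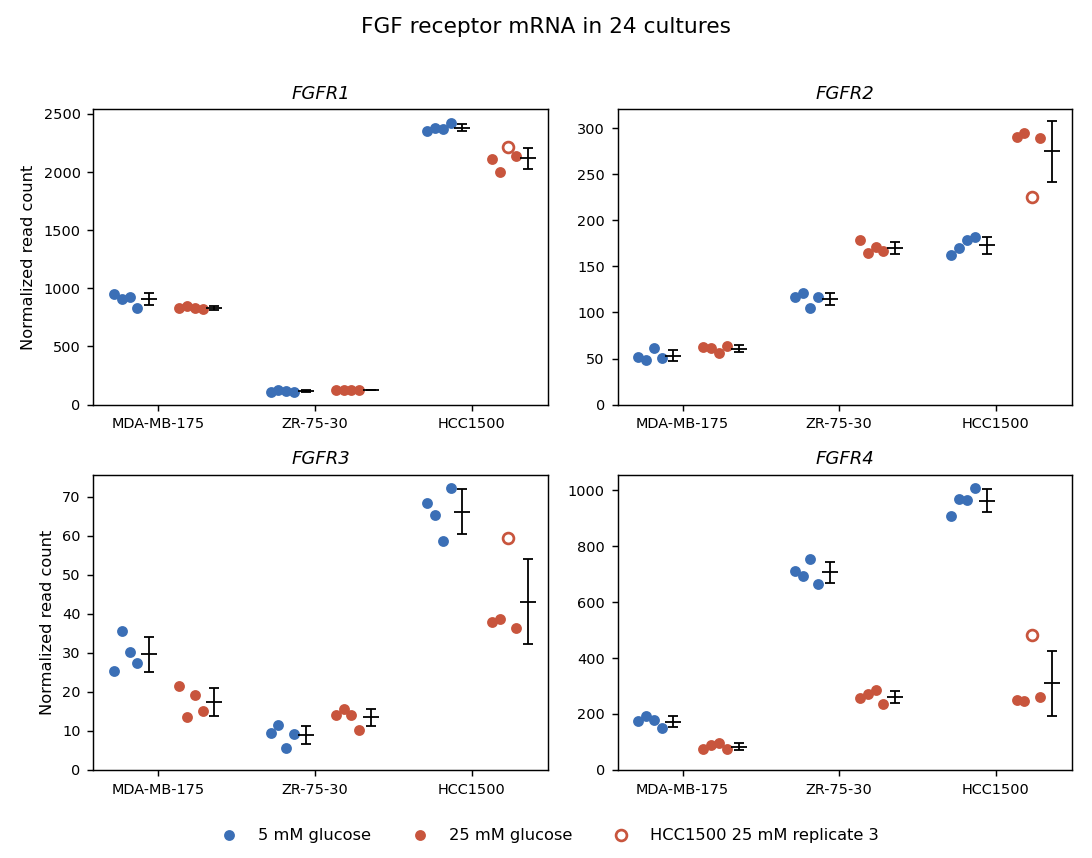
Normalized read counts of the 4 FGF receptor genes (y axes, linear and starting at 0) in the 3 lines (x axis), with 1 point per culture, blue at 5 mM and red at 25 mM glucose; bars give the mean and SD of 4 cultures, and the open circle is HCC1500 high glucose replicate 3. FGFR4 is lower at high glucose in all 3 lines, and FGFR2 is higher in ZR-75-30 and HCC1500.

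The 4 receptors did not move together. FGFR2, the receptor with the opposite pattern, rose in ZR-75-30 and HCC1500. In ZR-75-30 FGFR2 values were 117, 121, 105 and 117 at low glucose and 179, 165, 171 and 167 at high glucose, a change of 0.56 ± 0.07 on the log2 scale (limma, adjusted p = 3.6e-06). In HCC1500 they were 162, 170, 179 and 182 at low glucose and 291, 295, 226 and 290 at high glucose, a change of 0.66 ± 0.11 (limma, adjusted p = 0.00360). Conditions did not overlap in either line, and without replicate 3 the HCC1500 change was 0.75 ± 0.05 (limma, adjusted p = 1.5e-09). In MDA-MB-175 the FGFR2 values overlapped, at 48.9 to 61.5 against 55.8 to 63.1, and the change of 0.19 ± 0.11 did not pass (limma, adjusted p = 0.216).

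FGFR3, which is best known for its roles in cartilage and the bladder, fell in MDA-MB-175 and HCC1500. Its values were 25.3, 35.5, 30.2 and 27.5 at low and 21.6, 13.6, 19.1 and 15.2 at high glucose in MDA-MB-175, a change of -0.74 ± 0.18 (limma, adjusted p = 0.00616). In HCC1500 they were 68.4, 65.4, 58.7 and 72.3 against 37.8, 38.8, 59.4 and 36.5, and the change was -0.63 ± 0.17 (limma, adjusted p = 0.0334). Replicate 3 alone reached into the low glucose range there, and without it the change was -0.79 ± 0.11 (limma, adjusted p = 5.9e-06). The FGFR3 call in HCC1500 was lost on leaving out any 1 of the 7 other libraries, with adjusted p-values of 0.0602 to 0.100. In ZR-75-30 FGFR3 was near 10 and its mean went from 8.91 to 13.5, a change of 0.57 ± 0.25 that did not pass (limma, adjusted p = 0.0755) but did without low glucose replicate 2 (adjusted p = 0.0488) or high glucose replicate 4 (adjusted p = 0.0447).

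FGFR1, the receptor most often amplified in ER+ breast cancer, moved little. Its mean was 905 ± 51.4 (SD, n = 4) at low and 832 ± 14.4 at high glucose in MDA-MB-175. The ZR-75-30 means were 117 ± 7.82 and 126 ± 3.24, and the HCC1500 means 2381 ± 31.3 and 2118 ± 87.3. None of the 3 changes passed the test (limma, adjusted p = 0.0683, 0.235 and 0.118). In HCC1500 the conditions did not overlap, at 2350 to 2424 against 2004 to 2216, and the change passed without replicate 3, at -0.19 ± 0.03 (limma, adjusted p = 1.1e-05). The median change over all genes was then -0.12, against -0.01 with median-of-ratios scaling, where FGFR1 changed by -0.07 (adjusted p = 0.0324). In MDA-MB-175 it passed without low glucose replicate 4 (-0.16, adjusted p = 0.00387) and when values were scaled to equal library totals (-0.14, adjusted p = 0.0188). Small counts of FGFR1 reads could come from its neighbors on the opposite strand, LETM2 and ENSG00000255201, which share 525 exon bases with it, since the strand setting of the counting is not given in the sources used here.

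The make-up of receptor mRNA shifted with the fall of FGFR4. Levels of different genes were compared per kb of the reference transcript that the annotation marks as canonical (5697 bases for FGFR1, 4624 for FGFR2, 4301 for FGFR3 and 3093 for FGFR4). In ZR-75-30 FGFR4 made up 82.8% ± 1.2 (SD, n = 4) of the summed per-kb level of the 4 receptors at low glucose and 57.6% ± 2.02 at high glucose, while FGFR2 went from 9.04% ± 0.799 to 25.1% ± 1.40. In HCC1500 the FGFR4 share went from 39.8% ± 0.679 to 18.2% ± 4.98, with replicate 3 highest at 25.6%, and the FGFR1 share from 53.5% ± 0.747 to 68.9% ± 3.27. Without replicate 3 the high glucose shares were 15.7% ± 0.259 for FGFR4 and 70.5% ± 0.652 for FGFR1 (n = 3). In MDA-MB-175 the FGFR4 share went from 24% ± 1.36 to 14.2% ± 1.59 and FGFR1 led in both conditions, at 68.1% ± 1.45 and 76.7% ± 1.04. FGFR3 averaged at most 2.95% of the sum with these lengths. The summed per-kb receptor level was 233 ± 14.5 and 190 ± 4.78 for MDA-MB-175, 276 ± 11.2 and 147 ± 7.22 for ZR-75-30 and 782 ± 20.6 and 541 ± 45.4 for HCC1500 at low and high glucose, the last being 519 ± 13.1 without replicate 3. These shares depend on the transcript length assumed. With all annotated exons merged, which gives 17201 bases for FGFR1 and 4810 for FGFR4, FGFR4 made up 55.4% ± 0.750 of the HCC1500 sum at low glucose and FGFR1 38.3% ± 0.687, so that which of them led in that group could not be settled. With merged exons the FGFR4 share at high glucose was 23.9% after 36.8% for MDA-MB-175, 73.9% after 90.9% for ZR-75-30 and 29.8% after 55.4% for HCC1500. That direction is no check on the lengths. FGFR4 had the lowest ratio of high to low glucose means of the 4 receptors in every line, so its share falls with any lengths. FGFR3 then reached 6.26% ± 0.773 in low glucose MDA-MB-175 cultures, and its HCC1500 share went from 3.78% ± 0.312 to 4.17% ± 0.477, where the canonical lengths gave 1.97% ± 0.163 and 1.83% ± 0.302.

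**Figure D2:**
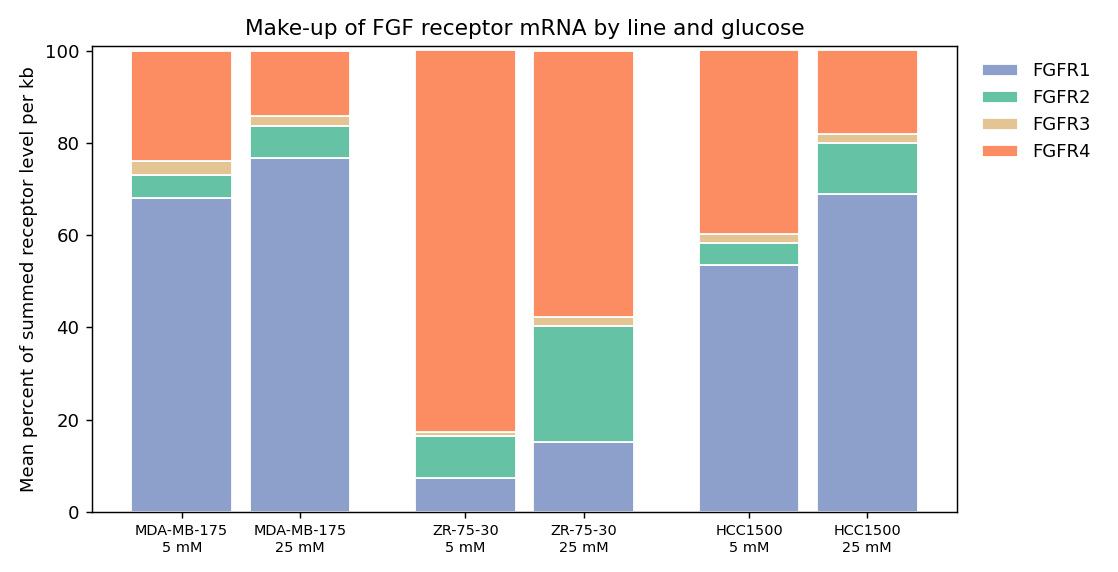
Mean percent of the summed per-kb level (y axis) held by each of the 4 receptors in each line at 5 or 25 mM glucose (x axis, n = 4 cultures per bar, canonical transcript lengths). FGFR4 falls from 82.8% to 57.6% in ZR-75-30, from 39.8% to 18.2% in HCC1500 and from 24% to 14.2% in MDA-MB-175.

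The receptors also differed between lines at low glucose, where 12 libraries were fitted together. FGFR4 was lowest in MDA-MB-175 (173 ± 18.4, SD, n = 4), higher in ZR-75-30 (707 ± 37.3) and highest in HCC1500 (962 ± 40.8). The step between ZR-75-30 and HCC1500, 0.45 ± 0.07 on the log2 scale, was the smallest of the 3. It is a description with no test, since the low glucose values of FGFR4 also served to choose it. At high glucose the order was kept for the means (83.8 ± 11.1, 262 ± 21.3 and 309 ± 115). As deposited, 3 of the 4 HCC1500 cultures, at 248 to 259, lay within the ZR-75-30 range of 235 to 284. Their mean of 252 ± 6.15 was under that of ZR-75-30. All values summed to 5559394 to 5604083 in those 3 libraries and to 7272253 to 7594840 in the ZR-75-30 high glucose libraries. This overlap and order at high glucose therefore depend on the scaling between lines. HCC1500 had the highest level of each of the 4 receptors at low glucose. FGFR1 was 20.4 times as high in HCC1500 as in ZR-75-30, a log2 difference of 4.34 ± 0.05 (limma, adjusted p = 3.3e-18). FGFR2 in HCC1500 exceeded that of ZR-75-30 by 0.59 ± 0.08 (limma, adjusted p = 7.6e-06) and FGFR3 by 2.79 ± 0.18 (limma, adjusted p = 1.1e-09). Over all 10 genes, 9 differed between MDA-MB-175 and ZR-75-30, 9 between MDA-MB-175 and HCC1500 and 10 between ZR-75-30 and HCC1500. FGFR4, chosen in part by these low glucose values, is included in each of these counts. Differences of this kind were general, with 73.1%, 80.6% and 80.4% of 17739 genes called in the same 3 comparisons.

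The ERK feedback and ETS genes had another order across lines than the receptors, and SPRY1, SPRY4, DUSP6 and ETV4 were lowest in HCC1500. SPRY4, a Sprouty inhibitor that restrains RAS-ERK signaling, had low glucose values of 1344, 1374, 1357 and 1253 for MDA-MB-175, 1563, 1552, 1511 and 1487 for ZR-75-30, and 3.80, 4.13, 8.44 and 4.74 for HCC1500. Its mean was 252 times as high in MDA-MB-175 as in HCC1500 and 290 times as high in ZR-75-30 (limma, adjusted p = 1.4e-15 and 7.2e-16), while MDA-MB-175 and ZR-75-30 were not told apart (log2 difference 0.20 ± 0.15, adjusted p = 0.251). DUSP6, the phosphatase that inactivates ERK, gave 1478, 1431, 1455 and 1404 for MDA-MB-175, 1562, 1607, 1552 and 1625 for ZR-75-30, and 40.7, 35.3, 34.9 and 39.6 for HCC1500. HCC1500 was lower than MDA-MB-175 by a log2 difference of -5.23 ± 0.05 (limma, adjusted p = 7.7e-19). Of the 50-base stretches of DUSP6, 24.68% are shared with ENSG00000274021 on the opposite strand, so a part of its reads could belong to that gene.

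The ETS factors were highest in MDA-MB-175. ETV4 averaged 490 ± 45.5 there at low glucose, against 144 ± 8.80 for ZR-75-30 and 9.89 ± 1.66 for HCC1500, and all 3 differences passed (limma, adjusted p = 1.3e-15 to 8.7e-10). ETV5 was above the detection floor in MDA-MB-175 alone, at 155, 148, 169 and 172 at low glucose and 184, 187, 177 and 157 at high glucose. ZR-75-30 had at most 3 ETV5 reads in any library, and HCC1500 had 1 read in 1 of its 8 libraries and 0 in the other 7. Against the floor of 3 reads, averaged over the low glucose libraries, ETV5 was at least 87.4-fold higher in MDA-MB-175 than in ZR-75-30 and at least 142-fold higher than in HCC1500. The call for ETV5 between ZR-75-30 and HCC1500 (limma, adjusted p = 0.0215) rests on values at or below the floor in both lines.

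The other Sprouty genes were less uniform. SPRY1 had the order of ETV4, with low glucose means of 434 ± 17.0 for MDA-MB-175, 189 ± 6.31 for ZR-75-30 and 28.1 ± 2.01 for HCC1500. SPRY2 was lowest in ZR-75-30 instead, at 5.78 ± 2.55, against 38.6 ± 3.28 in MDA-MB-175 and 40.5 ± 3.47 in HCC1500. MDA-MB-175 and HCC1500 were not told apart for SPRY2 (log2 difference 0.06 ± 0.22, adjusted p = 0.794). The line with the most FGFR1, FGFR2, FGFR3 and FGFR4 mRNA was thus the line with the least SPRY1, SPRY4, DUSP6 and ETV4 mRNA, in a comparison of 3 lines that allows no correlation.

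**Figure D3:**
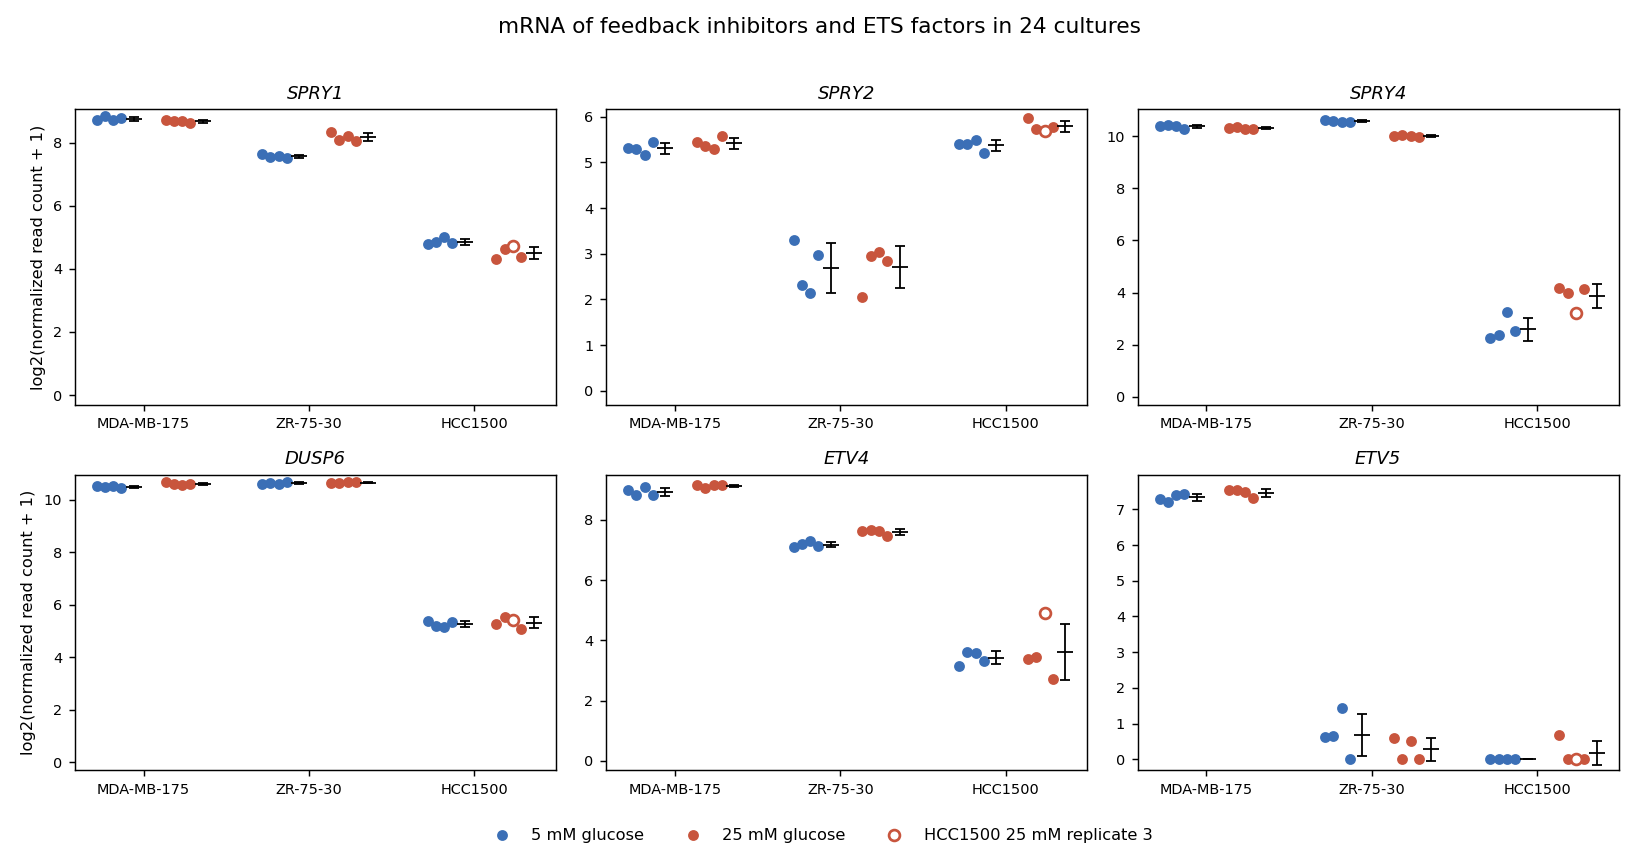
log2(normalized read count + 1) of the 6 feedback and ETS genes (y axes) in the 3 lines (x axis), with 1 point per culture, blue at 5 mM and red at 25 mM glucose; bars give the mean and SD on the log2 scale of 4 cultures, and the open circle is HCC1500 high glucose replicate 3. SPRY4, DUSP6 and ETV4 are low in HCC1500 and high in the other lines, and ETV5 is near 0 outside MDA-MB-175.

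High glucose left most of these output genes near their low glucose level in MDA-MB-175. Among the 9 genes other than FGFR4, ETV4 rose and FGFR3 fell, 2 of 9, against 25.7% of 17029 genes called in that line (11.9% higher and 13.7% lower), so the count was near the background. ETV4 was 510, 458, 545 and 449 at low and 567, 538, 565 and 573 at high glucose, a change of 0.20 ± 0.06 (limma, adjusted p = 0.0221). Conditions overlapped slightly, and the ETV4 call was lost without low glucose replicate 2 (adjusted p = 0.0779), high glucose replicate 3 (0.0546) or high glucose replicate 4 (0.0633). DUSP6 values were 1404 to 1478 at low and 1500 to 1616 at high glucose, with no overlap. Its change of 0.11 ± 0.04 lay at the threshold (limma, adjusted p = 0.0501) and passed in edgeR (adjusted p = 0.0137) and DESeq2 (adjusted p = 0.00427). SPRY1, SPRY2 and ETV5 changed by -0.09 ± 0.05, 0.11 ± 0.13 and 0.13 ± 0.08, and none passed (limma, adjusted p = 0.217, 0.588 and 0.234). SPRY4 changed by -0.07 ± 0.04 (limma, adjusted p = 0.240) and passed without low glucose replicate 4 (-0.10, adjusted p = 0.0462).

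In ZR-75-30, where FGFR4 led among the receptors, the output genes split. FGFR2, SPRY1 and ETV4 rose and SPRY4 fell, 4 of 9, against 46.0% of 15834 genes called in that line (23.4% higher and 22.7% lower). SPRY4 was 1563, 1552, 1511 and 1487 at low and 1029, 1046, 1035 and 994 at high glucose, a change of -0.57 ± 0.04 (limma, adjusted p = 3.3e-10). SPRY1 moved the other way, from 198, 185, 189 and 184 to 325, 269, 294 and 268, a change of 0.61 ± 0.07 (limma, adjusted p = 4.9e-07). ETV4 went from 135, 146, 156 and 141 to 199, 202, 198 and 175, a change of 0.42 ± 0.07 (limma, adjusted p = 8.3e-05). None of these 3 called genes had overlapping conditions, a trait that was not counted over all genes. DUSP6 was 1586 ± 34.7 at low and 1600 ± 21.0 at high glucose, a change of 0.01 ± 0.03 (limma, adjusted p = 0.797). The 2 Sprouty inhibitors thus moved in opposite directions in this line. SPRY2, at 5.78 ± 2.55 and 5.82 ± 1.85, changed by 0.04 ± 0.33 (limma, adjusted p = 0.944).

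In HCC1500 the called genes were FGFR2, SPRY2 and SPRY4, which rose, and FGFR3, which fell, 4 of the 8 genes tested, against 20.5% of 16361 genes called (7.46% higher and 13.0% lower). Of the genes called in HCC1500, 36.4% were higher at high glucose, and 48.9% with median-of-ratios scaling. These shares were 35.7% and 50.5% without replicate 3. ETV5 did not pass the filter on low values. Without replicate 3, 6 of 8 were called, with FGFR1 and SPRY1 added among those that fell, against 58.5% of 16235 genes (20.9% higher and 37.7% lower). Leaving out any 1 of the 7 other libraries left 1 or 2 called genes. SPRY4 was 3.80, 4.13, 8.44 and 4.74 at low and 17.1, 14.9, 8.17 and 16.6 at high glucose, a change of 1.28 ± 0.30 (limma, adjusted p = 0.0188), or 1.51 ± 0.27 without replicate 3 (adjusted p = 8.4e-05). All these values lay far under those of the other lines, the lowest of which was 994. SPRY2 went from 41.0, 41.0, 44.1 and 35.7 to 61.4, 52.2, 50.5 and 53.5 with no overlap, a change of 0.42 ± 0.12 (limma, adjusted p = 0.0434), or 0.45 ± 0.12 without replicate 3 (adjusted p = 0.00329). The SPRY2 call was lost when values were scaled to equal library totals (adjusted p = 0.153) and on leaving out any library other than high glucose replicate 3 (0.0725 to 0.128). SPRY4 lost its call on leaving out low glucose replicate 1, 2 or 4 or high glucose replicate 1 or 4 (0.0519 to 0.0619).

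The remaining HCC1500 genes were low and less certain. SPRY1 went from 28.1 ± 2.01 to 22.0 ± 3.08, a change of -0.35 ± 0.15 (limma, adjusted p = 0.134). Without replicate 3 it was -0.42 ± 0.16 (adjusted p = 0.0290), a call that was lost with median-of-ratios scaling and the same libraries (-0.30, adjusted p = 0.110). ETV4 was 7.98, 11.4, 11.1 and 9.04 at low and 9.44, 9.95, 29.0 and 5.54 at high glucose. The value of 29.0 came from replicate 3, and the change of 0.18 ± 0.42 (limma, adjusted p = 0.813) turned to -0.25 ± 0.25 without it (adjusted p = 0.418). DUSP6 changed by 0.04 ± 0.14 (limma, adjusted p = 0.870), or 0.01 ± 0.14 without replicate 3 (adjusted p = 0.962).

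**Figure D4:**
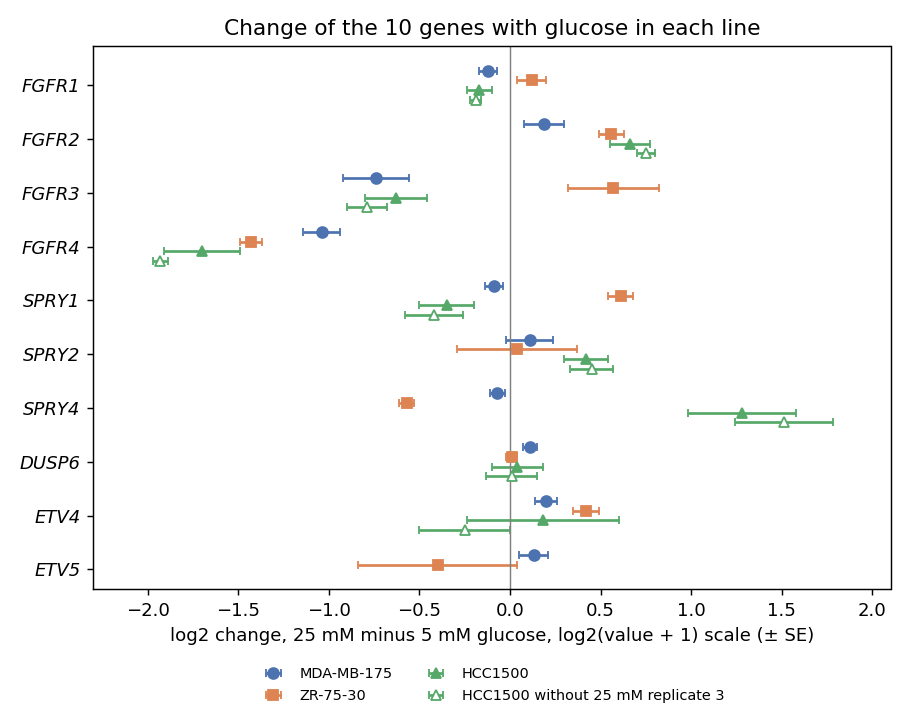
Change of each of the 10 genes at high glucose (x axis, log2 change ± SE on the log2(value + 1) scale, n = 4 against 4 cultures) in the 3 lines, with HCC1500 also shown without high glucose replicate 3 (open triangles, 4 against 3). FGFR4 lies left of 0 in every line, FGFR2 right of 0, and SPRY1 and SPRY4 differ in sign between ZR-75-30 and HCC1500.

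The glucose response differed between lines for 5 of the 9 genes other than FGFR4, against 29.3% of 18144 genes (limma F test over 24 libraries). They were FGFR1 (adjusted p = 0.00855), FGFR2 (0.0125), FGFR3 (0.00116), SPRY1 (6.1e-06) and SPRY4 (1.4e-05). SPRY4 fell in ZR-75-30 and rose in HCC1500, and SPRY1 rose in ZR-75-30 with changes of -0.09 and -0.35 in MDA-MB-175 and HCC1500. Without HCC1500 high glucose replicate 3, ETV4 was added (adjusted p = 0.0107), which made 6 of 9 against 48.6% of 18127 genes. DUSP6 (0.749), SPRY2 (0.585) and ETV5 (0.318) did not pass in the fit of all libraries.

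Other genes of the pathway were counted in 5 lists of ligands, co-receptors and FGF-binding proteins, adaptors and relay kinases, feedback inhibitors, and ERK output genes, with 61 of 73 symbols in the table. In MDA-MB-175, 12 rose and 9 fell among 55 tested, with a median change of 0.00 against -0.02 over all genes. In ZR-75-30, 16 rose and 13 fell among 56, with medians of 0.02 and 0.01. In HCC1500, 6 rose and 6 fell among 54, and without replicate 3 20 rose and 12 fell. The called genes made up 21 of 55, 29 of 56 and 12 of 54, beside backgrounds of 25.7%, 46.0% and 20.5%, and 32 of 54 without replicate 3 beside 58.5%. Leaving out 1 of the other HCC1500 libraries left 6 to 9 of the 12. Of the HCC1500 genes named below, FOS, IER3 and FGF9 kept their call whichever library was left out. FGF10, FGFBP3, GAB2 and EGR1 lost it on leaving out 4, 4, 6 and 4 of the 8 libraries in turn, with adjusted p-values of 0.0511 to 0.101. With all libraries, 0 genes of the lists were called with the same sign in all 3 lines. Without HCC1500 high glucose replicate 3 there were 3 such genes, CBL, SOS2 and PHLDA1, which rose in every line. SOS2, an exchange factor that activates RAS and was named after its values were seen, as was PHLDA1, then changed by 0.42 for MDA-MB-175, 0.38 for ZR-75-30 and 0.43 for HCC1500 (limma, adjusted p = 8.8e-06, 8.9e-06 and 3.2e-08). PHLDA1 changed by 0.29, 0.67 and 0.28 (limma, adjusted p = 2.1e-05, 2.8e-04 and 0.00209).

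Of 22 FGF ligands, 10 were in the table. FGF9, FGF10 and FGF13 were higher in HCC1500 than in both other lines at low glucose (limma, adjusted p = 6.3e-14 to 2.7e-07), FGF13 at 109 ± 6.76 against 13.3 ± 2.89 in MDA-MB-175 and 39.3 ± 6.81 in ZR-75-30. FGF10, a ligand of the FGFR2 splice form of epithelia, had 33 to 189 reads in the HCC1500 libraries and 0 in all 16 libraries of the other lines. Its value in HCC1500 fell from 59.0 ± 1.78 to 36.2 ± 7.85, a change of -0.72 ± 0.18 (limma, adjusted p = 0.0212). Replicate 3 was lowest at 24.5, and the change without it was -0.55 ± 0.11 (adjusted p = 2.1e-04). FGF9, named like FGF13 after its values were seen, went from 23.0 ± 3.0 to 43.0 ± 4.66 in HCC1500, a change of 0.88 ± 0.15 (limma, adjusted p = 0.00390), or 0.91 ± 0.15 without replicate 3 (adjusted p = 4.6e-05). It had at most 2 reads in any library of the other lines. FGF19 had no row in the table, and its co-receptor KLB averaged 0.555 to 4.56 in every group.

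Among co-receptors and binding proteins, 4 of 12 fell and none rose in MDA-MB-175, 2 of 12 rose and none fell in ZR-75-30, and 2 of 10 fell and none rose in HCC1500. Without replicate 3, 2 rose and 3 fell of the 10 in HCC1500. Of all genes, 13.7% fell in MDA-MB-175, 23.4% rose in ZR-75-30 and 13.0% fell in HCC1500, where without replicate 3 20.9% rose and 37.7% fell. The secreted FGF-binding protein FGFBP3 fell in MDA-MB-175, from 14.0 ± 2.62 to 7.48 ± 1.11 (-0.82 ± 0.22, limma, adjusted p = 0.0117). It also fell in HCC1500, from 18.4 ± 1.87 to 10.8 ± 1.86 (-0.72 ± 0.17, adjusted p = 0.0193, or -0.82 ± 0.19 without replicate 3, adjusted p = 0.00137), and was at 2.83 and 1.23 in ZR-75-30. SDC2, a heparan sulfate proteoglycan that presents FGFs, rose in ZR-75-30 from 6.10 ± 2.61 to 29.0 ± 4.88 (2.14 ± 0.27, adjusted p = 2.5e-06).

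Among adaptors and relay kinases, 6 rose and 2 fell of 21 in MDA-MB-175, 8 rose and 5 fell in ZR-75-30, and none rose and 2 fell in HCC1500. Without replicate 3, 10 rose and 4 fell in HCC1500. The shares of all genes that rose and fell were 11.9% and 13.7% for MDA-MB-175 and 23.4% and 22.7% for ZR-75-30. They were 7.46% and 13.0% for HCC1500, or 20.9% and 37.7% there without replicate 3. That last split depends on the scaling. Of the HCC1500 genes called without replicate 3, 35.7% were higher as deposited and 50.5% with median-of-ratios scaling. GAB2, a docking protein that links receptors to SHP2 and PI3 kinase, rose from 295 ± 15.9 to 450 ± 15.4 in MDA-MB-175 (0.61 ± 0.05, limma, adjusted p = 3.8e-07). In ZR-75-30 the rise was from 89.4 ± 9.32 to 290 ± 11.7 (1.69 ± 0.08, adjusted p = 4.9e-12), and HCC1500 instead showed a fall from 343 ± 7.02 to 252 ± 42.6 (-0.46 ± 0.13, adjusted p = 0.0371, or -0.33 ± 0.04 without replicate 3, adjusted p = 4.2e-06). The difference between lines passed the test (adjusted p = 3.8e-10). CBL, the ubiquitin ligase that sends active receptors to lysosomes, rose in MDA-MB-175 (113 ± 6.02 to 176 ± 17.2, adjusted p = 2.2e-05) and ZR-75-30 (131 ± 18.6 to 239 ± 24.1, adjusted p = 6.3e-07). In HCC1500 CBL was called only without replicate 3, where it rose from 267 ± 14.2 to 339 ± 27.5 (adjusted p = 5.7e-05), with replicate 3 at 65.3.

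Of the 8 other feedback inhibitors, 1 rose and none fell in MDA-MB-175, 2 rose and 3 fell in ZR-75-30, and 1 rose and none fell in HCC1500, or 2 rose and 2 fell there without replicate 3. Of the 10 other ERK output genes, 5 rose and 2 fell in MDA-MB-175, and 2 rose and 4 fell in ZR-75-30. In HCC1500 4 rose and 1 fell, or 5 rose and 1 fell without replicate 3. Beside both lists, 11.9% of all genes rose and 13.7% fell in MDA-MB-175, and 23.4% rose and 22.7% fell in ZR-75-30. The HCC1500 shares were 7.46% and 13.0%, or 20.9% and 37.7% without replicate 3. FOS and EGR1, immediate-early genes that respond fast to ERK, fell in MDA-MB-175 and ZR-75-30 alike and rose in HCC1500. FOS, which encodes a subunit of AP-1, fell from 743 ± 52.1 to 473 ± 5.67 in MDA-MB-175 (-0.65 ± 0.05, limma, adjusted p = 1.2e-07) and from 191 ± 9.84 to 57.4 ± 11.3 in ZR-75-30 (-1.74 ± 0.12, adjusted p = 1.3e-09). HCC1500 instead showed a rise from 20.5 ± 2.82 to 71.4 ± 14.0 (1.74 ± 0.18, adjusted p = 3.4e-04), or by 1.65 ± 0.15 without replicate 3 (adjusted p = 4.2e-08). EGR1, a zinc finger factor of the same class, fell from 836 ± 37.1 to 535 ± 13.6 and from 1915 ± 63.6 to 826 ± 37.1 there, while HCC1500 rose from 10.5 ± 1.35 to 18.1 ± 3.0 (limma, adjusted p = 3.4e-08, 1.0e-13 and 0.0221). The EGR1 change in HCC1500 was 0.73 ± 0.18, or 0.79 ± 0.21 without replicate 3 (adjusted p = 0.00300). The response of both genes differed between lines (adjusted p = 5.1e-11 for FOS and 7.2e-10 for EGR1). At low glucose both were lowest in HCC1500, as SPRY4 and DUSP6 were, with a log2 difference from MDA-MB-175 of -5.12 ± 0.09 for FOS and -6.19 ± 0.07 for EGR1 (adjusted p = 2.9e-16 and 6.7e-18).

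Not every ERK output was low in HCC1500. IER3, an immediate-early gene of cell survival, was 710 ± 20.3 there at low glucose, above MDA-MB-175 (370 ± 23.5, limma, adjusted p = 3.1e-11) and ZR-75-30 (642 ± 14.0, adjusted p = 0.00718), and rose at high glucose to 2032 ± 816 (1.44 ± 0.22, limma, adjusted p = 0.00247), or to 1624 ± 42.7 without replicate 3 (1.19 ± 0.03, adjusted p = 3.0e-15). It rose in MDA-MB-175 too, to 472 ± 42.8 (0.35 ± 0.07, adjusted p = 9.2e-04), unlike FOS and EGR1, which fell there. DUSP5, a nuclear ERK phosphatase, rose from 199 ± 17.3 to 387 ± 12.7 in MDA-MB-175 (0.96 ± 0.06, adjusted p = 2.0e-08) and from 856 ± 22.9 to 1995 ± 84.8 in ZR-75-30 (1.22 ± 0.04, adjusted p = 5.5e-14). In HCC1500 its change was -0.30 ± 0.16 (adjusted p = 0.245), and without replicate 3 it fell by 0.48 on the log2 scale (adjusted p = 2.3e-08). The related phosphatase DUSP4, named after its values were seen, had low glucose means of 10606 ± 113 for MDA-MB-175, 6928 ± 69.2 for ZR-75-30 and 354 ± 8.69 for HCC1500.

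**Figure D5:**
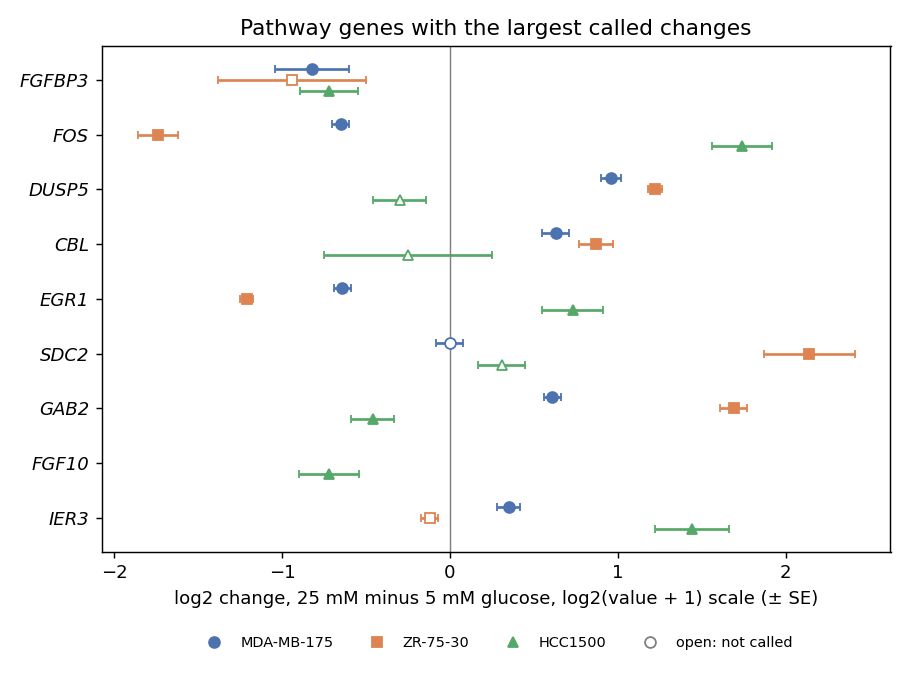
Change at high glucose (x axis, log2 change ± SE on the log2(value + 1) scale, 4 against 4 cultures) of the 9 pathway genes with the largest called rises or falls in any line; filled symbols passed the test and open ones did not. FOS, EGR1 and GAB2 lie on opposite sides of 0 in HCC1500 and in the other lines.

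Across all 24 libraries, after the mean of each line was removed, the genes whose pattern was most like FGFR4 among 10896 genes were CXCR4 (Pearson r = 0.980), HMGB2 (0.979), SLC39A11 (0.974), CCNB1 (0.973) and RACGAP1 (0.972). CXCR4 is a chemokine receptor, CCNB1 the cyclin of mitotic entry and RACGAP1 a cytokinesis protein. The most opposite were BNIP2 (-0.977), PARM1 (-0.974), MAN1A1 (-0.970), TNFRSF10B (-0.967) and C12orf49 (-0.966). FGFR2 was among the most opposite too, with r = -0.940, a value that 26 of the 10896 genes (0.239%, FGFR2 included) matched or went below. FGFR1 (0.394), FGFR3 (0.362), SPRY1 (-0.041), ETV4 (-0.151) and DUSP6 (-0.218) were far from either end. These correlations share the split of all libraries by glucose, and FGFR4 was chosen for that split.

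The nearest protein-coding gene to FGFR4, ZNF346, ends 5716 bases upstream of it and was the only one lying wholly within 150 kb. It encodes a zinc finger protein that binds double-stranded RNA. ZNF346 went from 102 to 100 in MDA-MB-175 (-0.04 ± 0.09, limma, adjusted p = 0.807) and fell in ZR-75-30 from 130 to 107 (-0.28 ± 0.08, adjusted p = 0.0101). In HCC1500 it fell from 159 to 111 (-0.54 ± 0.15, adjusted p = 0.0355), and without replicate 3 the log2 change was -0.68 ± 0.07 (adjusted p = 1.1e-07). These changes were smaller than those of FGFR4 in the same lines (-1.43 and -1.70), a difference between genes that was not tested.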

How the data were processed

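The 24 RNA-Seq libraries (Illumina HiSeq) were grouped by line, glucose level and replicate number as their titles state. The deposited values are a normalized signal per gene: whole reads, recovered in every library by a tolerance of 0.01 reads, divided by 1 factor per library that the sources used here do not name. The plan had assumed CPM. The authors aligned reads with TopHat to hg19 and Ensembl v70 genes, while the submitters' processing notes name hg38 and edgeR, and the table gives no coordinates. Coordinates are GRCh37 from GENCODE release 44 lifted to that build, which matched 96.3% of gene IDs.

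Log2(value + 1) was fitted with limma 3.58.1 (R 4.3.3), with an intensity trend, over the 8 libraries of a line. Lines were compared over the 12 low glucose libraries, and the difference in glucose response was an F test over all 24. A gene was tested where 4 or more of the fitted libraries reached 0.5, and a call is a Benjamini-Hochberg adjusted p under 0.05 over all of them. All p-values are two-sided, except the F test, which has no direction. Fold changes on this scale understate those of low genes. Alternatives changed the pseudocount, scaling, filter, trend, tool (edgeR 4.0.16 and DESeq2 1.42.0 on the recovered reads), replicate block or libraries. The fits were tested on simulated data with 200 changed genes.

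The members, lists and tests were chosen with earlier results of these data known. Named pathway genes were those called with 1 sign in all lines and, per line, the 2 called genes that rose most and the 2 that fell most, given a mean of at least 10. Likeness to FGFR4 was ranked over genes with a mean of at least 10 in each line. No replicate pair agreed within sampling noise. No 50-base stretch was shared between 2 of the 10 genes. Figures were drawn with matplotlib 3.10.9 in Python 3.11.15.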

Additional observations from a re-analysis of the deposited data

Results flagged for a closer look

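Of 59 groups of 4 cultures examined over the 10 genes, 6 held a culture whose gap to the nearest of the others exceeded Dixon's critical share of the group's range. Chance flags about 1 in 20 groups. HCC1500 high glucose replicate 3 gave 3 of the 6, with FGFR2 at 226 (others 290 to 295), FGFR3 at 59.4 (others 36.5 to 38.8) and FGFR4 at 482 (others 248 to 259). All 3 values lay on the side of the low glucose cultures, and this library stood apart over all genes. That direction did not hold for every gene. Its CBL value of 65.3, for example, lay below the low glucose cultures (247 to 278) and the other high glucose cultures (322 to 371). The others were FGFR2 in MDA-MB-175 high glucose replicate 3 (55.8, others 61.9 to 63.1), ETV4 in ZR-75-30 high glucose replicate 4 (175, others 198 to 202) and ETV5 in HCC1500 high glucose replicate 1 (0.590, a single read, others 0).

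A different glucose response between lines, by the limma F test, was found for FGFR1 (adjusted p = 0.00855), FGFR2 (0.0125), FGFR3 (0.00116), SPRY1 (6.1e-06) and SPRY4 (1.4e-05). Among these, SPRY4 alone was called with opposite signs in 2 lines, at -0.57 in ZR-75-30 and 1.28 in HCC1500.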

How the results depend on the processing

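FGFR4 stayed lower at high glucose under every alternative run, with log2 changes of -1.11 to -0.99 in MDA-MB-175, -1.47 to -1.38 in ZR-75-30 and -1.93 to -1.61 in HCC1500. Since FGFR4 was chosen for this fall, the ranges describe its size and do not test its direction. In MDA-MB-175 the count of 2 members called became 1 without the intensity trend and 1 to 4 on leaving out a replicate. In ZR-75-30 the count of 4 stayed between 4 and 5. In HCC1500 the count of 4 became 1 under the replicate block and 1 to 6 on leaving out a replicate. The 12 pathway genes called there became 6 under the replicate block and 6 to 32 on leaving out a replicate. With alternatives chosen after seeing the data, all without high glucose replicate 3, they became 34 in edgeR, 34 with median-of-ratios scaling and 33 with the replicate block. Same-numbered cultures did not all deviate together (mean correlations of 0.05, 0.04 and 0.02), so the replicate block is no paired design here. Signs turned for uncalled changes near 0. SPRY2 in ZR-75-30 became -0.00 when values were scaled to equal library totals and lay between -0.15 and 0.26 on leaving out a replicate, and DUSP6 became -0.03 with that scaling in ZR-75-30 and in HCC1500. In HCC1500 DUSP6 lay between -0.03 and 0.13 on leaving out a replicate and was -0.03 with the replicate block and without replicate 3. ETV4 there lay between -0.25 and 0.48 on leaving out a replicate; it was -0.25 without replicate 3, -0.16 in edgeR, -0.14 with median-of-ratios scaling and -0.20 with the replicate block, each without that library. The causes were not tested. Counts of members called between lines (8 to 10) and in the interaction (4 to 6) stayed within 1.5 times. Genes with few reads (SPRY4, ETV4 and SPRY1 in HCC1500, ETV5 outside MDA-MB-175) limit what the depth can show.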

Other observations

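Some pathway genes outside the naming rule are described here after their values were seen. FRS2, the docking protein that binds the FGF receptors, was higher in HCC1500 (1793 ± 44.5, SD, n = 4) than in MDA-MB-175 (356 ± 15.6) and ZR-75-30 (282 ± 30.4) at low glucose, with log2 differences of 2.33 ± 0.06 and 2.67 ± 0.06 (limma, adjusted p = 5.7e-14 and 9.5e-15). HCC1500 thus had the most mRNA of the receptors and of their docking protein, and the least of SPRED1 (29.7 ± 3.75), an inhibitor of RAS activation, which was 164 ± 7.99 in MDA-MB-175 and 590 ± 44.7 in ZR-75-30. CCND1, the D-type cyclin that ERK and the estrogen receptor induce, rose in MDA-MB-175 from 6402 ± 157 to 7516 ± 277 (0.23 ± 0.04, limma, adjusted p = 4.0e-04) and fell in HCC1500 from 11246 ± 184 to 9099 ± 501 (-0.31 ± 0.08, adjusted p = 0.0291). The HCC1500 call was lost on leaving out any 1 of its libraries other than high glucose replicate 3 (adjusted p = 0.0584 to 0.0976), without which the change was -0.27 ± 0.02 (adjusted p = 9.4e-09). FGF13, an intracellular FGF relative that does not act as a classical receptor ligand, rose in ZR-75-30 from 39.3 ± 6.81 to 80.4 ± 10.1 (1.02 ± 0.14, adjusted p = 6.5e-06). CD68, a lysosomal protein used as a macrophage marker, was at 5.66 at low and 37.7 at high glucose in ZR-75-30. The only other listed marker of blood and vessel cells in the table, VWF, was at 8.04 and 5.14 there.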
